A study of Mus musculus with 3 samples.

Results

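The mitosis genes described here are 52 mouse genes, taken from a list of symbols and found by name among the 32285 genes of each count table. They were measured in the embryonic stem cell line E14, which has a 129/Ola background and was cultured with serum and leukemia inhibitory factor. The series asked how stem cell transcriptomes respond to cycloheximide, a drug that blocks translation elongation, at 250 µg/mL in 0.007% ethanol, added 24 h after seeding. There was 1 library of cells exposed for 3 h, 1 of cells exposed for 6 h and 1 control library of cells that had received ethanol alone for 6 h, so that no ethanol control matched the 3 h library in duration. With 1 library of 1 cell line per group there was no replicate error, no test was made, and each difference below is a difference between libraries.

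Most of these genes are transcribed in a wave that begins in late S phase and peaks in G2 and mitosis, when B-type cyclins and Cdk1 drive chromosome condensation, spindle assembly and the attachment of kinetochores to microtubules. The anaphase-promoting complex then marks cyclin B and securin for destruction, the sister chromatids part and cytokinesis divides the cell. Embryonic stem cells divide rapidly with a short G1 phase, so many cells of a culture carry mitotic transcripts at any time. Many promoters of the wave hold a CHR element, with the letters TTTGAA or TTCGAA, and CCAAT boxes bound by the factor NF-Y.

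RefSeq promoter windows on GRCm38.p6, each 300 bases long with 250 bases before and 50 after the annotated start, were matched by symbol for 43 of the 52 genes (47 windows). TTTGAA on either strand was present in 72.3% of these windows, against 17.9% of all 32851 windows of the same length. TTCGAA was present in 8.51% against 1.56%, and at least 1 of these CHR forms in 76.6% against 19.2%. CCAAT on either strand was present in 78.7% against 37.4%. A CHR form together with CCAAT was found in 68.1% of the mitosis windows, in 7.52% of all windows and in 13.9% of the 36 windows of S phase genes, of which 69.4% had CCAAT and 19.4% a CHR form. TTCGAA reads the same on both strands, and matches of different motifs were counted also where their ends overlapped.

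The stretches of 120 bases before the annotated start are shown for 3 genes that held both motifs close to the start (Cdk1, Cdc20 and Kif11), for the mitosis gene with the lowest ratio after cycloheximide (Plk1) and for one that had a ratio above 0 at 6 h and neither motif in its window (Birc5). Capitals mark the CHR form TTTGAA, which reads TTCAAA where it lies on the other strand. They also mark the box CCAAT, which reads ATTGG where it lies on the other strand. In order, they lie at chr10:69352913-69353032 on the minus strand, chr4:118437344-118437463 on the minus strand, chr19:37376262-37376381 on the plus strand, chr7:122159315-122159434 on the plus strand and chr11:117849117-117849236 on the plus strand.
Cdk1: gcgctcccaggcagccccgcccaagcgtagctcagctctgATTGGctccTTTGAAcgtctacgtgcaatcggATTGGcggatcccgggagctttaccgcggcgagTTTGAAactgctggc
Cdc20: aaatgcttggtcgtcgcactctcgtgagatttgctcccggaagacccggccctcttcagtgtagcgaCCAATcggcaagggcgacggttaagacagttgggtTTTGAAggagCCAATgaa
Kif11: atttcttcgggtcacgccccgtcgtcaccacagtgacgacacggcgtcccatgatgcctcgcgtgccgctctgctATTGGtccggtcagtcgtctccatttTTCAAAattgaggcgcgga
Plk1: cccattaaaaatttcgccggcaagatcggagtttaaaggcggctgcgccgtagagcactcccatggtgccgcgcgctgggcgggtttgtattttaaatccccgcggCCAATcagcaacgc
Birc5: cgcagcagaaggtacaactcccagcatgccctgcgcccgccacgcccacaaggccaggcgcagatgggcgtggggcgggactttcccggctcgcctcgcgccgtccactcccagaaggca
The Plk1 window also held a TTTGAA after the annotated start, outside the stretch shown. Other windows paired motif and ratio differently from Plk1 and Birc5. Nuf2, at a log2 ratio of -0.97 at 6 h, held neither motif, and Cdca8, at 0.26, held both. A match describes the letters of the reference sequence and says nothing about binding in these cells.

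Cells were barcodes with at least 15000 unique molecular identifiers (UMIs, each standing for 1 captured RNA molecule) and 1 to 20% of UMIs from mitochondrially encoded genes. The control held 2187 such cells, the 3 h library 1739 and the 6 h library 2554, with median UMIs per cell of 43160, 51726 and 46200 and median mitochondrial shares of 4.58%, 3.52% and 2.89%. The libraries shared 1 to 3 cell barcodes pairwise. The 8 embryonic stem cell markers summed to 6656, 7664 and 6952 CPM (the usual scaling of UMI counts to one common library total). Of these sums, Dppa5a made up 4771, 5327 and 5475 CPM. All 8 lay above the control at 3 h, but at 6 h only Nanog and Dppa5a did. Pou5f1, Sox2, Zfp42, Esrrb, Klf4 and Tdgf1 lay below it at 6 h, for example Zfp42 at 455, 592 and 240 CPM. The 6 fibroblast markers summed to 1.28 to 2.48 CPM, with Col3a1, Postn and Lum at 0 in all libraries. The 5 neural markers summed to 81.8, 58.7 and 39.4 CPM, of which Tubb3 made up 65.3, 35.1 and 18.6 CPM. Sox1, Pax6, Nes and Neurog2 instead lay above the control at 3 h, and all of these but Sox1 did at 6 h. The 4 mesoderm markers summed to 1.68, 3.00 and 5.02 CPM, with Kdr alone below the control in both exposed libraries. The 6 trophoblast markers summed to 39.0 to 41.8 CPM, with Elf5 at 0. Within this sum, Tfap2c and Cdx2 lay above the control in both exposed libraries and Eomes, Krt8 and Krt18 below it. The 6 primitive endoderm markers summed to 7.28 to 10.01 CPM and the 5 markers of 2-cell-like cells to at most 0.592 CPM. The part of such cells in the values below was not tested. Values of mitosis genes are CPM over the summed cells, and their intervals and those of ratios are 95% intervals that cover counting error only. In such sums, fewer cells in mitosis and fewer mitotic transcripts per cell cannot be told apart.

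As a group, the mitosis transcripts lay below the middle of all transcripts after cycloheximide, and Plk1 lay farthest below the control. Smc4, Cdc25c and Birc5 lay above the control at 6 h under each of the 3 scalings described below. The 52 genes together made up 6436 CPM in control cells and 5734 and 5627 CPM after 3 h and 6 h, log2 ratios of -0.17 (-0.17 to -0.16) and -0.19 (-0.20 to -0.19). Ratios are given for the 51 genes whose mean over the libraries reached 10 CPM. The exception is Cdc25b, a phosphatase that activates Cdk1, at 8.38, 6.69 and 6.69 CPM. Over the 51, the median ratio on the log2 scale was -0.17 at 3 h and -0.24 at 6 h, against 0.11 and 0.17 over all 7608 genes above that floor, and 41 of 51 lay below 0 at 3 h and 37 at 6 h, against 35.9% of all genes at each time.

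The size rule counted a gene as higher or lower when its CPM ratio passed 1.5-fold. At 3 h, 5 of the 51 genes were lower (2.13% of all genes were) and 0 were higher (13.9% of all genes were). At 6 h, 10 were lower (7.79% of all genes) and 0 were higher (22.1%). From 3 h to 6 h, none of the 51 passed the rule in either direction (2.52% of all genes were lower and 1.74% higher), and the median log2 ratio was -0.07 against 0.04 over all genes. The 3 h and 6 h ratios share the control library, so their likeness is not independent.

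The position of 0 depended on the scaling. TMM factors moved every ratio by -0.17 at 3 h and -0.28 at 6 h, and mean UMIs per cell moved them by 0.27 and 0.11. The median of the mitosis genes at 3 h was thus -0.34 by TMM and 0.10 by UMIs per cell, beside -0.06 and 0.38 over all genes. At 6 h it was -0.52 and -0.13, beside -0.12 and 0.28. Lower counts at 3 h were 9 by TMM (5.23% of all genes) and 1 by UMIs per cell (0.775%), and at 6 h 20 by TMM (16.7% of all genes) and 7 by UMIs per cell (5.49%). Higher counts at 6 h were 0 by TMM (11.7% of all genes) and 2 by UMIs per cell (27.8%). From 3 h to 6 h, 1 gene was lower by TMM (4.1% of all genes) and 3 by UMIs per cell (5.28%). The largest ratio of a named gene that changed sign under any setting tried was 0.26 in size, so directions of smaller ratios hold for the scaling named.

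**Figure D1:**
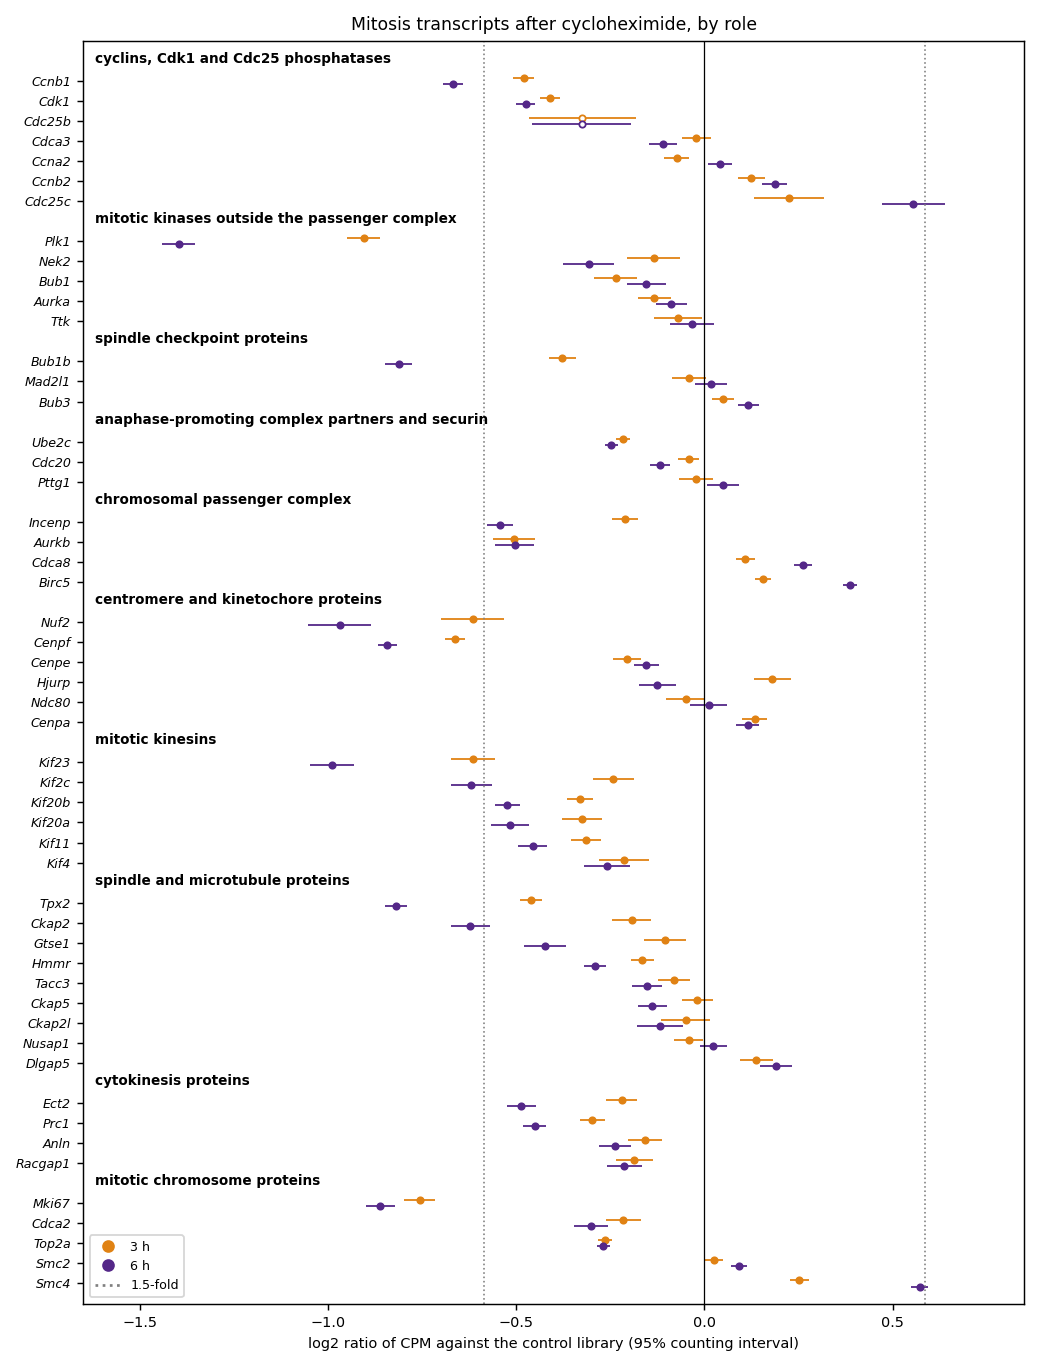
Log2 ratio of CPM against the control library (horizontal axis) for each of the 52 mitosis genes, grouped by role, at 3 h (orange) and 6 h (purple), with 95% counting intervals, open points for Cdc25b below the floor and dotted lines at 1.5-fold. Plk1 lies farthest to the left at -0.91 and -1.40, all 6 kinesins lie left of 0, and no gene above the floor of 10 CPM lies beyond the right dotted line.

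Transcripts of cyclin B1 and Cdk1 lay below the control in both exposed libraries, with cyclin B1 past 1.5-fold at 6 h and Cdk1 at neither time by CPM. Ccnb1, which encodes cyclin B1, was at 222 CPM in control cells, and at 159 and 140 CPM after 3 h and 6 h. Its log2 ratios were -0.48 (-0.51 to -0.45) and -0.67 (-0.70 to -0.64), so both exposed libraries lay below the control. Cdk1, the kinase partner of the mitotic cyclins, was at 237, 178 and 170 CPM, with log2 ratios of -0.41 and -0.48 by CPM and -0.59 and -0.76 by TMM.

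Ccnb2, which encodes the other main B-type cyclin, was at 108, 117 and 122 CPM. Its log2 ratio at 6 h was 0.19 (0.15 to 0.22) by CPM and -0.10 by TMM. Ccna2, the cyclin of S and G2 phase, was at 135, 129 and 139 CPM, with log2 ratios of -0.07 and 0.04 by CPM. Cdc25c, another Cdk1-activating phosphatase, was at 15.9, 18.6 and 23.4 CPM, and its log2 ratio of 0.55 (0.47 to 0.64) at 6 h was above 0 under each of the 3 scalings. Cdca3, a trigger of mitotic entry, had ratios of -0.02 and -0.11. Of the 6 genes of this group above the floor, 1 was lower at 6 h by the size rule (7.79% of all genes). The median at 6 h was -0.03 by CPM, -0.32 by TMM and 0.07 by UMIs per cell.

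Plk1, the polo-like kinase that acts in entry, spindle assembly and cytokinesis, had the lowest ratio of the mitosis genes. Its locus is at 122159439 to 122169873 on the plus strand of chromosome 7 (GRCm38). Control cells had 114 CPM (12723 UMIs), cells exposed for 3 h 60.9 CPM (6511 UMIs) and cells exposed for 6 h 43.3 CPM (6081 UMIs). The log2 ratios were -0.91 (-0.95 to -0.86) and -1.40 (-1.44 to -1.35), and -1.68 by TMM and -1.29 by UMIs per cell at 6 h. The exposed libraries thus lay below the control and the 6 h library below the 3 h library, and Plk1 was the 1 mitosis gene past 2-fold at 6 h by CPM (2.41% of all genes were lower by that rule). By TMM, Kif23 (-1.27), Nuf2 (-1.25), Mki67 (-1.14), Cenpf (-1.12), Tpx2 (-1.10) and Bub1b (-1.09) were also past 2-fold at 6 h (5.17% of all genes).

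The other kinases lay nearer to the control. Aurka, the centrosome and spindle kinase Aurora A, was at 80.0, 72.9 and 75.2 CPM, with a log2 ratio at 6 h of -0.09 by CPM and 0.02 by UMIs per cell. Bub1, a kinase of the spindle checkpoint, was at 49.5, 42.1 and 44.5 CPM (log2 -0.24 and -0.15). Ttk, the checkpoint kinase Mps1, had ratios of -0.07 and -0.03, and Nek2, a centrosome kinase, of -0.14 and -0.31. All 5 kinases lay below 0 at both times by CPM (35.9% of all genes did at each time). Plk1 alone was past 1.5-fold (2.13% of all genes were lower at 3 h and 7.79% at 6 h). By UMIs per cell, however, the median of the 5 at 3 h was 0.13.

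Among the checkpoint proteins that hold back anaphase, Bub1b, which encodes BubR1, was at 131, 101 and 74.5 CPM, a log2 ratio of -0.81 (-0.85 to -0.78) at 6 h. Bub3 (0.12) and Mad2l1 (0.02) were above 0 at 6 h by CPM and below 0 by TMM (-0.17 and -0.27). BubR1 and Bub3 proteins act in 1 complex with Mad2 and Cdc20, so partners of that complex differed in the ratio of their transcripts.

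Among genes tied to the anaphase-promoting complex, Cdc20, Ube2c and Pttg1 stayed within 1.5-fold at both times. Cdc20, its mitotic activator, was at 199, 193 and 183 CPM, with log2 ratios of -0.04 (-0.07 to -0.02) and -0.12 (-0.14 to -0.09). Ube2c, the ubiquitin-conjugating enzyme that works with the complex, was at 445, 383 and 375 CPM, with ratios of -0.22 and -0.25. Pttg1, which encodes securin, was at 71.6, 70.5 and 74.0 CPM.

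In the chromosomal passenger complex, which corrects kinetochore attachments and directs cytokinesis, the subunits split by CPM. Aurkb, its kinase Aurora B, was at 58.9, 41.5 and 41.5 CPM, with log2 ratios of -0.51 (-0.56 to -0.45) and -0.51 (-0.56 to -0.45). Incenp, its scaffold, had ratios of -0.21 and -0.54. Both lay below 0 under all 3 scalings at 6 h.

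Birc5, which encodes survivin, was instead at 342, 381 and 447 CPM, ratios of 0.16 (0.14 to 0.18) and 0.39 (0.37 to 0.40). Cdca8, which encodes borealin, was at 213, 229 and 255 CPM, with a ratio at 6 h of 0.26 (0.24 to 0.29) by CPM and -0.02 by TMM. Survivin and borealin bind each other and the end of Incenp, and by CPM the transcripts of this pair were ordered upward over the libraries. By TMM, Cdca8 lay below the control at both times (-0.07 and -0.02) and Birc5 at 3 h (-0.02), and by UMIs per cell Incenp lay above it at 3 h (0.06). None of the 4 passed 1.5-fold by CPM, while at 6 h by TMM Aurkb (-0.79) and Incenp (-0.83) did (16.7% of all genes were lower).

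The centromere and kinetochore genes ranged from -0.97 to 0.11 on the log2 scale at 6 h, with 2 of 6 lower by the size rule (7.79% of all genes). Cenpf, a large kinetochore protein that accumulates in G2, was at 265, 167 and 148 CPM (log2 -0.66 and -0.84). Nuf2, a subunit of the NDC80 complex that grips microtubules, was at 26.6, 17.3 and 13.6 CPM (-0.62 and -0.97). Both lay below the control under all 3 scalings.

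Ndc80, the partner of Nuf2 in the same complex, had ratios of -0.05 and 0.01. Cenpe, a kinetochore motor, was at 116, 101 and 104 CPM (-0.20 and -0.15). Cenpa, the histone variant that marks the centromere, was at 132, 145 and 143 CPM, with a ratio at 6 h of 0.11 by CPM and -0.17 by TMM. Hjurp, the chaperone that loads Cenpa protein, was at 57.3, 65.0 and 52.6 CPM, above the control at 3 h and below it at 6 h by CPM.

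All 6 kinesins lay below 0 by CPM at both times (35.9% of all genes did at each time). Their medians were -0.32 (3 h) and -0.52 (6 h), and the latter was -0.80 by TMM and -0.41 by UMIs per cell. At 3 h by UMIs per cell the median was -0.05, with Kif2c (0.03) and Kif4 (0.05) above 0 and the other kinesins below it. Of the 6, 2 were at least 1.5-fold lower at 6 h by CPM (7.79% of all genes), 5 by TMM (16.7%) and 1 by UMIs per cell (5.49%). Kif23, a motor of the central spindle, was at 54.0, 35.3 and 27.2 CPM, with log2 ratios of -0.61 (-0.67 to -0.55) and -0.99 (-1.05 to -0.93). Kif11, the motor that pushes spindle poles apart, was at 104, 83.5 and 75.7 CPM (-0.31 and -0.46).

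Kif2c, which depolymerises microtubules at centromeres, had ratios of -0.24 and -0.62 and was the other kinesin past 1.5-fold at 6 h. Kif20a and Kif20b, motors of late mitosis, were at -0.52 each at 6 h, and Kif4, a chromosome-arm motor, at -0.26. Each of the 6 had a lower CPM at 6 h than at 3 h, between -0.04 and -0.38 on the log2 scale. The counting interval of Kif4, from -0.11 to 0.02, reached to both sides of equality.

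Of the 9 spindle and microtubule genes, 2 were lower at 6 h by the size rule (7.79% of all genes). Tpx2, which activates Aurora A on the spindle, was at 205, 149 and 116 CPM, with log2 ratios of -0.46 (-0.49 to -0.43) and -0.82 (-0.85 to -0.79). Ckap2 was at 61.3, 53.6 and 39.8 CPM, ratios of -0.19 and -0.62. Tpx2 and Aurka, whose proteins act together, thus differed in ratio at 6 h.

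Dlgap5, which stabilises kinetochore fibres, was at 70.2, 77.2 and 80.1 CPM, with a ratio at 6 h of 0.19 (0.15 to 0.23) by CPM and -0.09 by TMM. Gtse1 (-0.42), Hmmr (-0.29), Tacc3 (-0.15), Ckap5 (-0.14) and Ckap2l (-0.12) were below 0 at 6 h by CPM and under the other scalings. Nusap1 was at 0.02 at 6 h by CPM.

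All 4 cytokinesis genes lay below 0 at both times by CPM (35.9% of all genes did at each time). Their medians were -0.20 (3 h) and -0.35 (6 h). At 3 h that median was 0.07 by UMIs per cell, and at 6 h it was below 0 under all 3 scalings. At 6 h, Ect2, which activates RhoA at the cleavage site, was at -0.49, Prc1, which bundles microtubules of the central spindle, at -0.45, the scaffold Anln at -0.24 and Racgap1, the partner of the Kif23 protein in centralspindlin, at -0.21. None of the 4 passed 1.5-fold by CPM or by UMIs per cell. Ect2 (-0.77) and Prc1 (-0.73) did so at 6 h by TMM (16.7% of all genes were lower).

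The mitotic chromosome genes held the widest spread of neighbours in function. Mki67, which encodes the Ki-67 coat protein of mitotic chromosomes, was at 120, 70.9 and 65.9 CPM, with log2 ratios of -0.76 (-0.80 to -0.72) and -0.86 (-0.90 to -0.82). Top2a, the topoisomerase that untangles sister chromatids, was at 464, 387 and 385 CPM (-0.26 and -0.27). Cdca2, which targets a phosphatase to chromosomes, had ratios of -0.22 and -0.30.

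Smc4, a core subunit of condensin, was at 212, 253 and 315 CPM, with log2 ratios of 0.25 (0.23 to 0.28) and 0.57 (0.55 to 0.59). It was the highest of the 51 genes at both times and stayed above 0 under all 3 scalings. Smc2, its partner in the condensin core, was at 258, 262 and 275 CPM, ratios of 0.03 and 0.09.

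**Figure D2:**
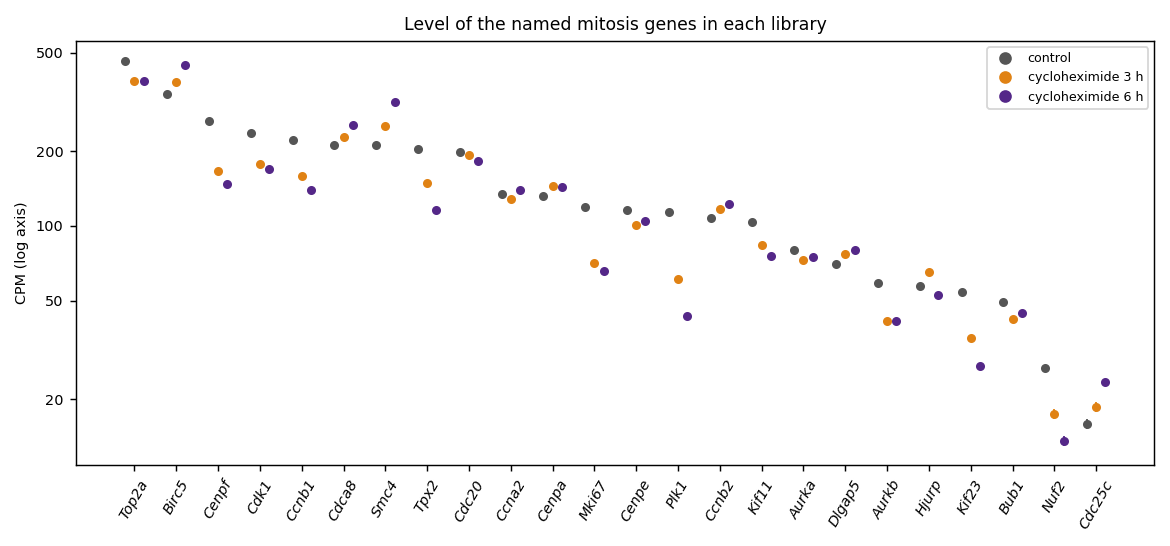
CPM on a log axis (vertical) in each library for the 24 mitosis genes named by rule (horizontal, ordered by control level), with 95% Poisson counting intervals that are mostly smaller than the points. Plk1 steps down from 114 to 60.9 to 43.3 CPM, Smc4 steps up from 212 to 253 to 315 CPM, and Ccna2 stays between 129 and 139 CPM.

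Genes of the same pathways outside the list gave a mixed picture. Among 29 other kinetochore and checkpoint genes above 10 CPM, 13 were higher and 2 lower at 6 h by CPM, 6 and 2 by TMM, and 17 and 2 by UMIs per cell, and their median log2 ratio was 0.56 by CPM, 0.28 by TMM and 0.67 by UMIs per cell. The highest was Nsl1, a subunit of the MIS12 complex, at 7.28, 19.9 and 24.0 CPM. The lowest was Cenpc1, which bridges centromeric chromatin to the kinetochore, at 33.9, 22.7 and 17.99 CPM (log2 -0.91). The median of the listed kinetochore genes was -0.14 at 6 h, and the shares of all genes that were higher and lower, given above for each scaling, are the background for these lists.

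Of 17 subunits, helpers and an inhibitor of the anaphase-promoting complex, 2 were higher and 1 lower at 6 h by CPM, 2 and 2 by TMM, and 2 and 1 by UMIs per cell, with a median of 0.16 by CPM and -0.12 by TMM. They ranged from Anapc1 at 50.6, 39.1 and 31.2 CPM to Anapc16 at 44.1, 71.8 and 92.5 CPM. Of 19 cohesin and condensin genes, 1 was higher and 2 lower by CPM, 0 and 6 by TMM, and 1 and 2 by UMIs per cell, with Rad21, the cohesin subunit cut at anaphase, lowest at 157, 115 and 84.3 CPM and Cdca5, which encodes sororin, highest at 40.1, 75.3 and 73.0 CPM. Of 23 other spindle, kinesin and cytokinesis genes, 0 were higher and 3 lower by CPM, 0 and 7 by TMM, and 1 and 0 by UMIs per cell. The lowest was Cep55, an abscission factor, at 56.9, 69.9 and 35.8 CPM. Aspm, a spindle pole protein, was at 59.2, 51.9 and 40.8 CPM (-0.54 at 6 h), and the highest was Ndel1 at 12.3, 16.9 and 17.5 CPM.

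Among 12 entry regulators, 3 were higher and 4 lower at 6 h by CPM, 0 and 4 by TMM, and 3 and 3 by UMIs per cell. Kpna2, an importin, was the lowest at 72.3, 17.4 and 12.5 CPM, with log2 ratios of -2.06 and -2.54. Wee1, the kinase that holds Cdk1 inactive, was at 37.0, 25.9 and 23.7 CPM (-0.64), and Cdc25a, a phosphatase that opposes it, at 51.9, 76.5 and 87.3 CPM (0.75). Ensa, an inhibitor of the phosphatase PP2A-B55 in mitosis, was the highest of this list at 40.6, 59.1 and 69.9 CPM (0.78). The antagonists Wee1 and Cdc25a therefore lay on opposite sides of the control.

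Of 13 transcription regulators of these genes above the floor, 1 was higher and 1 lower at 6 h by CPM and by TMM, and 5 higher and 0 lower by UMIs per cell. Foxm1, an activator of G2 and M phase genes, was at 16.9, 13.9 and 14.3 CPM (-0.24), and Mybl2, which encodes B-Myb, at 271, 348 and 335 CPM (0.31 by CPM and 0.03 by TMM). NF-Y subunits were at both ends, with Nfya at 14.9, 16.3 and 9.67 CPM and Nfyc at 38.3, 55.8 and 72.8 CPM. Of 43 S phase genes above the floor, 17 were higher and 0 lower at 6 h by CPM, 6 higher and 2 lower by TMM, and 20 higher and 0 lower by UMIs per cell. Their median was 0.46 by CPM and 0.17 by TMM, against -0.24 and -0.52 for the mitosis genes. They ranged from Usp1 (140, 127 and 106 CPM) to Rad51ap1 (37.1, 81.3 and 105 CPM).

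For measures in single cells, each cell was thinned at random to 15000 UMIs, which left no cell out. The median gene of the 51 had a UMI in 72.2%, 67.6% and 62.0% of control, 3 h and 6 h cells, and in 93.4%, 93.6% and 90.7% before thinning. Plk1 was seen in 74.3% of thinned control cells (72.5 to 76.2, exact Clopper-Pearson interval), 52.3% at 3 h (49.95 to 54.7) and 34.1% at 6 h (32.3 to 36.0). Mki67 was seen in 74.3%, 59.6% and 54.2%, and Smc4 in 89.8%, 95.3% and 97.7%.

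No cell type without mitotic transcripts was present to set a background for these shares, so they count cells with a UMI and not cells expressing a gene. In barcodes with 10 to 100 UMIs, a measure of free RNA, Plk1 was at 96.2, 42.7 and 32.9 CPM and Smc4 at 165, 247 and 239 CPM. Free RNA thus held both genes in the order of the control against the exposed cells, and its part in the shares was not tested.

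The summed UMIs of the 52 genes per thinned cell had medians of 88, 78 and 72 in the control, 3 h and 6 h libraries. The 10th percentile moved little (57, 56 and 52), and the 90th percentile was 140, 121 and 120. Cells at or above 140 made up 10.1% of the control by definition, 5.75% at 3 h (4.70 to 6.95) and 7.09% at 6 h (6.12 to 8.15). Cells at or below 57 made up 10.9%, 12.9% (11.3 to 14.5) and 19.2% (17.7 to 20.8).

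The far end of the distribution ran the other way. The 99th percentile was 179, 187 and 233 in the same order, and the highest cell had 251, 261 and 410 mitosis UMIs of its 15000. Cells above the 99th percentile of the control, a cut chosen after the distributions had been seen, numbered 22 of 2187 in the control, 25 of 1739 at 3 h (1.44%, 0.932 to 2.11) and 73 of 2554 at 6 h (2.86%, 2.25 to 3.58). The coefficient of variation of the sum was 0.346, 0.349 and 0.452. The 6 h library thus had a lower middle and a longer upper tail than the control.

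Depth differed between those cells and the rest. The 73 cells at 6 h had a median of 59544 UMIs before thinning against 45802 in the other cells, and mitochondrial shares of 2.77% and 2.90%. Without cells above 2 times the median UMIs of their library, the share at 6 h was 2.84% and in the control 1.11%. Over 4 equal classes of cells by UMIs, from shallow to deep, the median sum ran 77, 79.5, 115 and 95 in the control and 68, 67, 76 and 78 at 6 h, so the sum also moved with depth within a library, and its part in the difference was not tested.

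**Figure D3:**
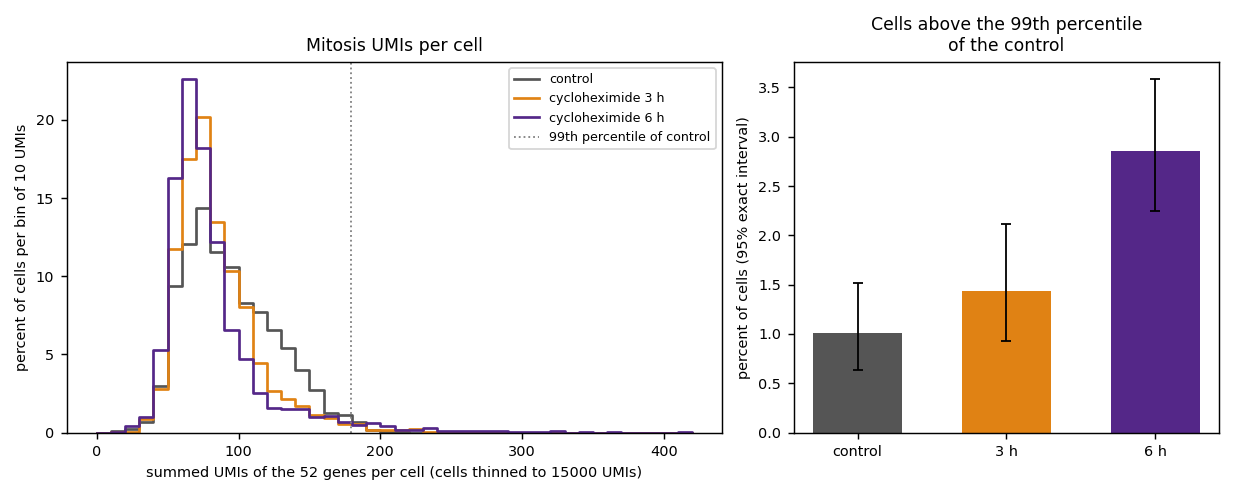
Left, distribution of summed UMIs of the 52 mitosis genes per cell thinned to 15000 UMIs (horizontal) as percent of cells per bin of 10 UMIs (vertical) in the control (grey), at 3 h (orange) and at 6 h (purple), with the 99th percentile of the control dotted. Right, percent of cells above that percentile with 95% exact intervals, at 1.01%, 1.44% and 2.86%. The exposed libraries have fewer cells between about 100 and 150 UMIs, and the 6 h library reaches 410.

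For Plk1 and Cenpf, more cells held no UMI and fewer held many. For Plk1, thinned cells with 0 UMIs made up 25.7%, 47.7% and 65.9% in the order of exposure. Cells with at least 5 Plk1 UMIs were 4.44%, 1.27% and 1.41%, the 99th percentile was 6, 5 and 5 UMIs, and the highest cell had 10, 8 and 12. For Cenpf, cells with 0 UMIs made up 10.2%, 18.3% and 25.5%, and cells with at least 5 made up 31.3%, 14.9% and 10.0%. The 99th percentile of Cenpf was 14, 11 and 12 UMIs and its highest cell had 26, 21 and 27, so apart from the single highest cell neither gene had the longer upper tail of the sum.

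Aurka had 40.6%, 42.8% and 45.9% of cells at 0, and 2.29%, 1.96% and 3.05% with at least 5 UMIs. The intervals of the latter over cells within a library were 1.70 to 3.00 in the control and 2.42 to 3.797 at 6 h. Smc4 differed, with 10.2%, 4.66% and 2.31% of cells at 0 and 23.5%, 32.1% and 46.5% with at least 5 UMIs, a shift of the whole distribution upward.

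Variability between cells was measured as the excess squared coefficient of variation, in which the mean is taken from the variance and the rest is divided by the square of the mean, and which is 0 for pure counting noise. Over the 51 genes its median was 0.189, 0.227 and 0.356, while over all 6047 genes that reached 0.2 UMIs per thinned cell in each library it was 0.0734, 0.0750 and 0.0789. It was higher than in the control for 31 of the 51 genes at 3 h (50.4% of all genes) and 47 at 6 h (53.4%). At 6 h it was higher than at 3 h for 47 (53.6%).

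Plk1 went from 0.19 to 0.54 and 2.00, the highest of the 51 at 6 h. Cenpf went from 0.43 to 0.58 and 1.04, Aurka from 0.39 to 0.51 and 0.92, and Mki67 from 0.41 to 0.44 and 0.81. Pttg1 was the most variable in the control at 0.80 and reached 1.13. Smc4, the highest by ratio, was less variable at 6 h (0.13) than in the control (0.19), and Birc5 stayed at 0.03 to 0.07 in all libraries.

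**Figure D4:**
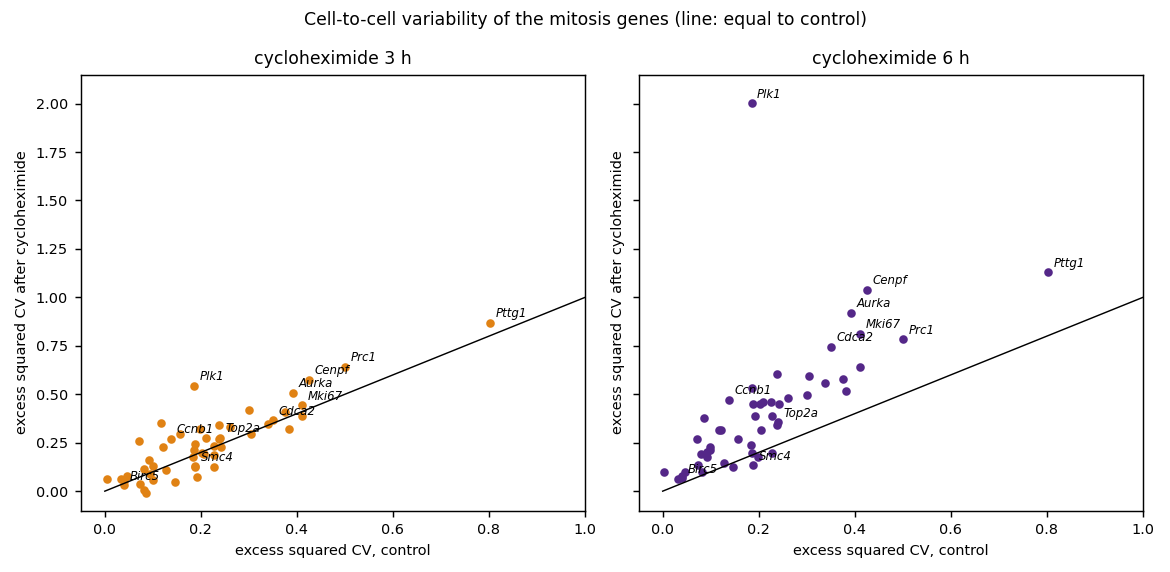
Excess squared coefficient of variation of each of the 51 mitosis genes above the floor across cells thinned to 15000 UMIs, in the control (horizontal) and after cycloheximide (vertical), at 3 h (left) and 6 h (right), with a line of equality. At 3 h, 31 genes lie above the line, and at 6 h 47 do, with Plk1 highest at 2.00.

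The mitosis genes varied together across cells in all 3 libraries. The median Spearman correlation over their 1275 pairs was 0.091 across 2187 control cells, 0.075 across 1739 cells at 3 h and 0.099 across 2554 cells at 6 h, and 95.5%, 95.9% and 98.8% of pairs were above 0. Over all pairs of genes above the floor the median was 0.002 in each library, over pairs of S phase genes 0.034, 0.036 and 0.042, and between mitosis and S phase genes -0.008, -0.007 and 0.009. The cells of a library share culture, library preparation and thinned depth, and low counts hold these values down, so they describe each library only. Pairs within a role were hardly closer than pairs between roles (medians of 0.105 and 0.089 in the control).

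The 5 closest pairs in the control were Prc1 with Top2a, Ube2c with Nusap1, Cenpf with Top2a, Ube2c with Cenpf and Cdk1 with Ube2c. Prc1 with Top2a had a correlation of 0.515 before exposure and of 0.399 and 0.401 after it. Ube2c with Nusap1 had 0.432, 0.373 and 0.343, and Cenpf with Top2a 0.423, 0.288 and 0.394. Ube2c with Cenpf had 0.421, 0.316 and 0.277. Cdk1 with Ube2c had 0.418, 0.234 and 0.188, the largest drop of these 5. The pairs were chosen as the highest in the control, which by itself favours lower values in the other libraries.

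Ube2c was the gene closest to the sum of the others in the control, at a correlation of 0.657, and its values after exposure were 0.529 and 0.431. Its pairs differed in direction. Ube2c with Top2a dropped from 0.391 to 0.139 and 0.111, the largest drop of the 1275 pairs at 6 h, and Ube2c with Prc1 from 0.412 to 0.257 and 0.210. Ube2c with Cenpa went from 0.358 to 0.434 and 0.425, and Ube2c with Cdc20 from 0.345 to 0.370 and 0.368. Ube2c was singled out by its control value, which by itself favours a lower correlation with the sum in the other libraries. Its pairs named here were picked after their values had been seen.

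Other pairs of Top2a differed among themselves. Top2a with Cdk1 went from 0.272 to 0.275 and 0.358, and Top2a with Smc2 from 0.133 to 0.161 and 0.274, while Top2a with Cenpa went from 0.177 to 0.052 and 0.010. Among the pairs with Top2a, those with Cdk1 and Smc2 were thus higher at 6 h, and those with Ube2c, Tpx2 (0.262, 0.093 and 0.075) and Cenpa were lower. These pairs were picked as extremes after the values had been seen.

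Ccnb2 was the gene least tied to the others in the control, at a correlation with their sum of 0.027, and its values after exposure were 0.114 and 0.183. Its pair with Aurka had the largest gain at 6 h, from -0.005 in the control to 0.089 and 0.179. Ccnb1, the other B-type cyclin, ran the other way, at 0.458, 0.388 and 0.333 with the sum of the others. The correlation of Ccnb2 was higher and that of Ccnb1 lower in each step of exposure, and the levels of Ccnb2 moved by no more than 0.19 on the log2 scale by CPM. Ccnb2 was singled out as the lowest in the control and its pair with Aurka as the largest gain. Both choices by themselves favour higher values after exposure.

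**Figure D5:**
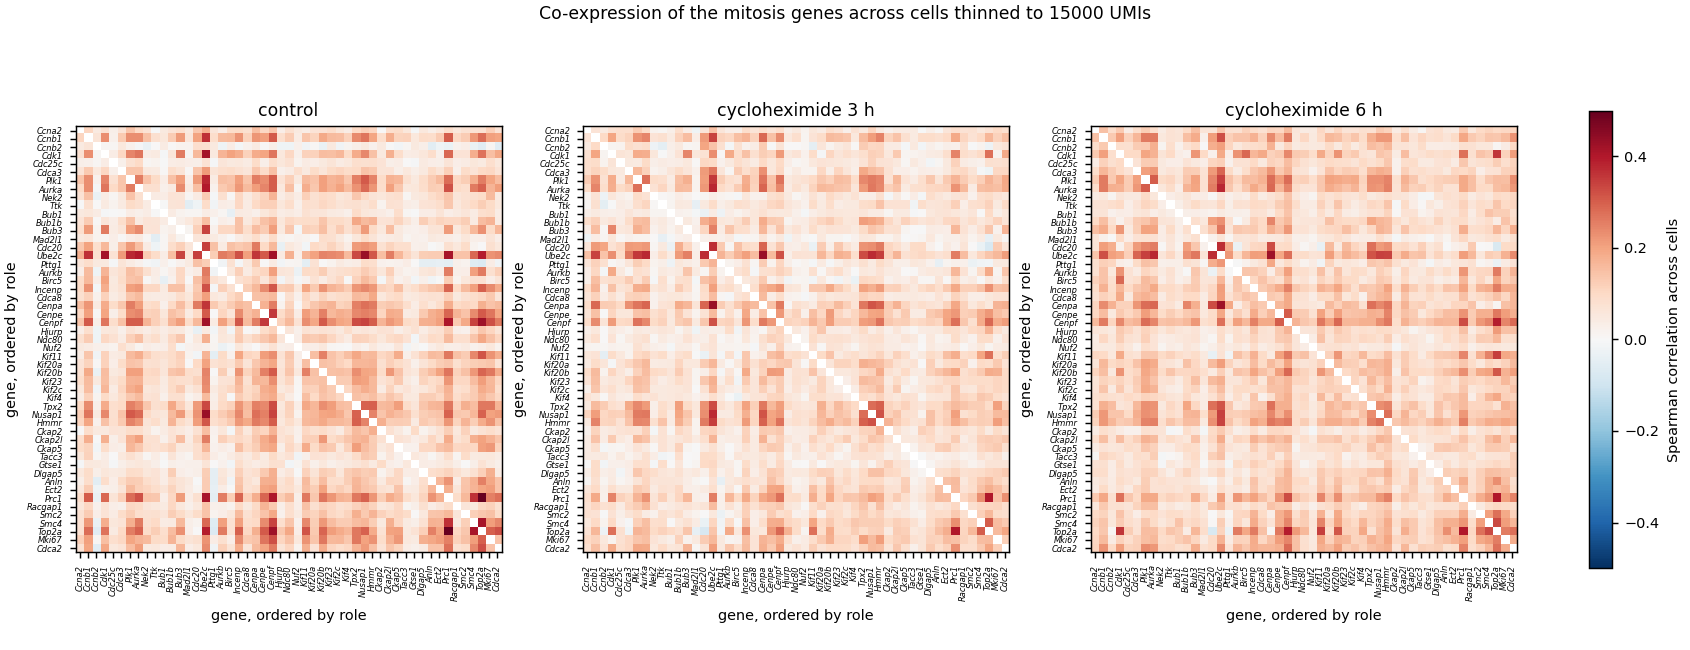
Spearman correlation across cells thinned to 15000 UMIs for every pair of the 51 mitosis genes above the floor, ordered by role on both axes, with 1 panel for each library (colour, from -0.5 in blue to 0.5 in red). The dark lines of Ube2c, Cenpf, Prc1 and Top2a in the control fade at 3 h, and the pair of Ube2c and Top2a is at 0.391, 0.139 and 0.111.

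The relation of the mitosis genes to S phase genes within a library changed sign. The summed mitosis UMIs of a thinned cell had a Spearman correlation with its summed S phase UMIs of -0.19, -0.06 and 0.20 in the order of exposure. The mean of the S phase sum was 89.5, 105 and 113 UMIs per thinned cell. The mitosis sum correlated with the total UMIs of the cell before thinning at 0.27, 0.11 and 0.25, and the part of depth in these values was not tested.

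Among genes outside the list, those most like the mitosis sum across control cells included Arl6ip1 (0.588), Cks2 (0.515), Jpt1 (0.422), Malat1 (0.396), Ccnf (0.389), Hspa8 (0.389), Aspm (0.371), Calm2 (0.362) and Tuba1c (0.360). The likeness of each of these was lower in both exposed libraries, for example 0.446 and 0.385 for Arl6ip1 and 0.423 and 0.426 for Cks2, which encodes a Cdk1-binding protein. These genes were chosen by their high control correlation, which by itself favours lower values in the other libraries. The parts of this choice and of exposure in the drop were not tested. Cks2 itself was at 427, 309 and 220 CPM and Ccnf, which encodes cyclin F, at 106, 76.1 and 62.1 CPM. Hspa8, a heat shock cognate chaperone, was at 2835, 1125 and 477 CPM, and its likeness was 0.389, 0.192 and 0.142.

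Across the 51 genes, those most tied to the others in the control tended to have lower ratios. The Spearman correlation between a gene's control correlation with the other genes and its log2 ratio was -0.43 (3 h) and -0.34 (6 h), and between its control CPM and its ratio -0.05 and 0.04. These are correlations across genes, which are not independent replicates, and both sides use the same control library. By promoter, the 32 genes with a CHR form in a matched window had a median log2 ratio at 6 h of -0.24, and the 10 without one -0.15. The medians differed by little beside the range within the first group, from -1.40 (Plk1) to 0.26 (Cdca8).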

How the data were processed

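Single-cell RNA was measured in 3 libraries of detached, frozen and thawed E14 cells with 10x Genomics 3' chemistry. The authors deposited unnormalized UMI counts for each gene and barcode, made with Cell Ranger 4.0.0 on mm10, per the submitters' processing notes. The gene annotation and the handling of overlapping genes and strand are not given in the sources used here, and 32235 of 32285 identifiers matched GENCODE M21 on GRCm38, including all 52 genes.

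From the counts, UMIs were summed over cells and expressed as CPM, with log2 ratios at a prior of 0.5 counts. The libraries held 127601369, 115188502 and 150987519 UMIs, of which 111447486, 106842407 and 140321458 were in cells. A library gave 715 to 62739 UMIs of a mitosis gene in its cells. Barcodes below 1% mitochondrial UMIs (62, 1 and 8) were left out, and 0 exceeded 20%. No doublet caller was run and no doublets were removed.

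The 52 genes, their 10 roles, the 7 other lists, the rules and the alternatives were chosen with earlier results of these data known. Named by rule were 12 fixed genes and those with the 6 highest and 6 lowest ratios at either time, 24 in all, with 6 fixed genes and the highest and lowest of each other list, the 10 genes outside the list most like the mitosis sum, of which 1 is not reported here, and the 5 closest pairs. Other named genes serve the account by role or were picked after their values had been seen.

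Intervals are exact Poisson (CPM), exact conditional binomial (ratios) and exact Clopper-Pearson (shares), at 95%. An interval of a ratio of sums treats the UMIs as independent counts. The measures were tested on simulated data. There the summed counts were drawn as Poisson counts, so the check of the ratio intervals left out variability between cells and between libraries. TMM factors came from edgeR 4.0.16 in R 4.3.3, and the rest used Python 3.11.15 with numpy 2.4.6, scipy 1.17.1, pandas 2.3.3 and matplotlib 3.10.9. Alternatives covered scaling, cell and gene floors, the prior, free RNA, thinning and cells of high UMI count.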

Additional observations from a re-analysis of the deposited data

Results flagged for a closer look

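Ccna2 and Hjurp lay on opposite sides of the control at the 2 times. The log2 ratio of Ccna2 by CPM was -0.07 at 3 h and 0.04 at 6 h, and the ratio at 6 h minus that at 3 h was 0.114. By TMM both ratios were below 0 (-0.25 and -0.24), and by UMIs per cell both were above 0 (0.20 and 0.15). The log2 ratio of Hjurp was 0.18 and then -0.13, which is -0.306 from 3 h to 6 h, with -0.41 at 6 h by TMM and -0.02 by UMIs per cell. Each time had 1 library and both ratios share the control, so neither difference was tested.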

How the results depend on the processing

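No paired analysis was possible because each group had 1 library, and for the same reason no library could be left out. The scaling moved the medians and counts most. By TMM the median log2 ratio of the mitosis genes was -0.34 at 3 h, -0.52 at 6 h and -0.18 from 3 h to 6 h, with 9, 20 and 1 genes at least 1.5-fold lower (5.23%, 16.7% and 4.1% of all genes). By UMIs per cell it was 0.10, -0.13 and -0.23. By that scaling, 1 gene was lower at 3 h (0.775% of all genes), 7 at 6 h (5.49%) and 3 from 3 h to 6 h (5.28%). At 6 h, 2 were higher (27.8%). Barcodes with at least 2000 UMIs and no lower mitochondrial limit gave medians of -0.13 at 3 h and -0.17 at 6 h and 1 gene higher at 6 h. A floor of 50 CPM gave 3 genes lower at 3 h and a median of -0.15 at 6 h. The shares of all genes for these barcodes and for this floor were not computed. At 2-fold, 0 genes were lower at 3 h (0.513% of all genes) and 1 at 6 h (2.41%). Thinning to 30000 UMIs left out the cells with fewer UMIs, so it changed the set of cells as well as the depth. It gave median shares of cells with a UMI of 90.2%, 87.2% and 85.7% (control, 3 h, 6 h), median pair correlations of 0.141, 0.124 and 0.144 and median sums of 181, 155 and 145. Without thinning these were 93.4%, 93.6% and 90.7%, then 0.501, 0.508 and 0.473, then 275, 264 and 228, so the order of the libraries in shares and correlations depended on thinning. A second random thinning gave a median share of 64.0% at 6 h. Of 504 ratios of named genes under the alternatives, 36 changed sign, 31 of them by scaling, and 0 of those past 1.5-fold did. The number of genes with higher variability and the share of cells above the 99th percentile of the control stayed within 1.5 times or their intervals under the alternatives, which were chosen after seeing the data. Depth limits Cdc25c and Nuf2 most among named genes, and differences between libraries have no replicate check. Where else the values moved, the cause was not tested.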

Other observations

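The genes most opposite to the mitosis sum across control cells were replication-dependent histone genes, which are expressed in S phase. Hist1h2ap had a Spearman correlation with the sum of -0.623 before exposure and of -0.404 and -0.128 after 3 h and 6 h, Hist1h1b of -0.476, -0.254 and -0.056, and Hist1h2ae of -0.457, -0.361 and -0.117. The opposition was thus weaker in each exposed library. Their levels moved apart from each other, with Hist1h2ap at 1241, 1963 and 1832 CPM, Hist1h1b at 458, 476 and 281 CPM and Hist1h2ae at 289, 1154 and 1182 CPM. Histone genes have near-identical copies and most of their transcripts lack a poly(A) tail, so counts of single copies are uncertain. These genes were chosen by their control correlation after the values had been seen, which by itself favours weaker opposition in the other libraries.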
